A study of Mus musculus with 6 samples.

Results

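Cholesterol synthesis and its control by sterol regulatory element binding protein 2 (SREBP-2) were followed through 31 genes, listed by name in pathway order from acetyl-CoA to cholesterol, then SREBP-2 control, uptake and traffic. The list kept only genes present among the 23412 genes of the count table, and all 31 passed the filter on low counts. They were 19 enzymes of the pathway and 12 genes of control, uptake, traffic and esterification. Liver RNA was sequenced from C57BL/6J mice, an inbred strain, with a stated age of 8 weeks. Every mouse had been fed a high-fat diet for 4 weeks; HFD_Lira3d mice then received liraglutide subcutaneously at 300 µg/kg for 3 days, and HFD_PBS3d mice received phosphate-buffered saline (PBS). There were 3 libraries in each group, called here Lira161, Lira162 and Lira164 and PBS155, PBS157 and PBS158 after the numbers in their column names. Liraglutide is a long-acting agonist of the glucagon-like peptide 1 receptor that promotes insulin release and curbs appetite; the labels give neither food intake nor a pair-fed group. The labels do not say whether the libraries came from separate animals, so the p-values speak only for the spread among these libraries, which may be technical.

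Cells make cholesterol from acetyl-CoA through mevalonate, the isoprenoid farnesyl diphosphate, squalene and lanosterol. When sterols in the endoplasmic reticulum (ER) are low, the escort protein SCAP carries SREBP-2 to the Golgi, where the site-1 and site-2 proteases release its transcription factor domain, which turns on nearly the whole enzyme set. When sterols are plentiful, INSIG proteins hold SCAP in the ER. The liver is a main site of this synthesis, and feeding and insulin are known to raise it there.

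The enzyme transcripts were lower after liraglutide almost throughout the pathway, while most genes of the control machinery and of sterol traffic did not pass the test. Of the 19 enzymes, 17 fell, none rose, and the other two were Ggps1 and Hsd17b7. The 17 were between 1.40-fold and 11.1-fold lower, with a median of 3.78-fold. Of the 12 control and traffic genes, Srebf2 and Insig1 fell and none passed the test as higher. The counts together are 19 lower and 0 higher of 31. At an unadjusted p below 0.05, 20 were lower and 1 was higher in edgeR. The higher one was Insig2, which DESeq2 and limma-voom called. Over all 12626 tested genes, 1648 were lower and 1582 higher at that unadjusted threshold. In bulk liver RNA, fewer cells of a type and less RNA per cell cannot be told apart. Among all 12626 tested genes 4.69% were called lower and 4.08% higher, taking 0.05 as the threshold on the adjusted p (edgeR, quasi-likelihood; Benjamini-Hochberg adjustment over all of them). The median log2 fold change, liraglutide over PBS, was -1.87 over the enzymes and 0.02 over the control and traffic genes, beside 0.01 over all tested genes. All 3 liraglutide libraries lay below all 3 PBS libraries for 18 of the 19 enzymes and for 21 of the 31 genes, a pattern that 16.4% of all tested genes showed.

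The count of 19 depended on the filter and on which libraries were used. Dropping Lira161 gave 7, dropping Lira162 gave 5 and dropping Lira164 gave 18, while dropping PBS155 gave 10, PBS157 19 and PBS158 14. Cyp51, Tm7sf2, Sc5d and Dhcr7 were called lower under every one of the 14 alternative settings, which include each left-out library. Without the low-count filter the count was 12, and Fdft1, Insig1, Lss and Mvd held their calls in only 2 of 6 leave-one-out fits. Without Lira161 the genes no longer called were Acat2, Hmgcs1, Mvk, Pmvk, Mvd, Idi1, Fdps, Fdft1, Lss, Nsdhl, Srebf2 and Insig1. Without Lira162 they were the same genes except Pmvk, and also Sqle, Sc4mol and Ebp, and without Lira164 they were Mvd and Lss. Without PBS155 they were Acat2, Mvd, Idi1, Fdps, Fdft1, Sqle, Lss, Nsdhl and Insig1, and without PBS158 Fdft1, Sqle, Ebp, Srebf2 and Insig1. In these 42 lost calls the log2 fold change was still 0.80 to 1.14 times its value with all libraries, in fits of 2 libraries against 3, and the edgeR adjusted p was up to 0.151. The direction was the same for 29 of the 31 genes in every setting, the exceptions being Mbtps1 and Soat2, which lay near 0.

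**Figure D1:**
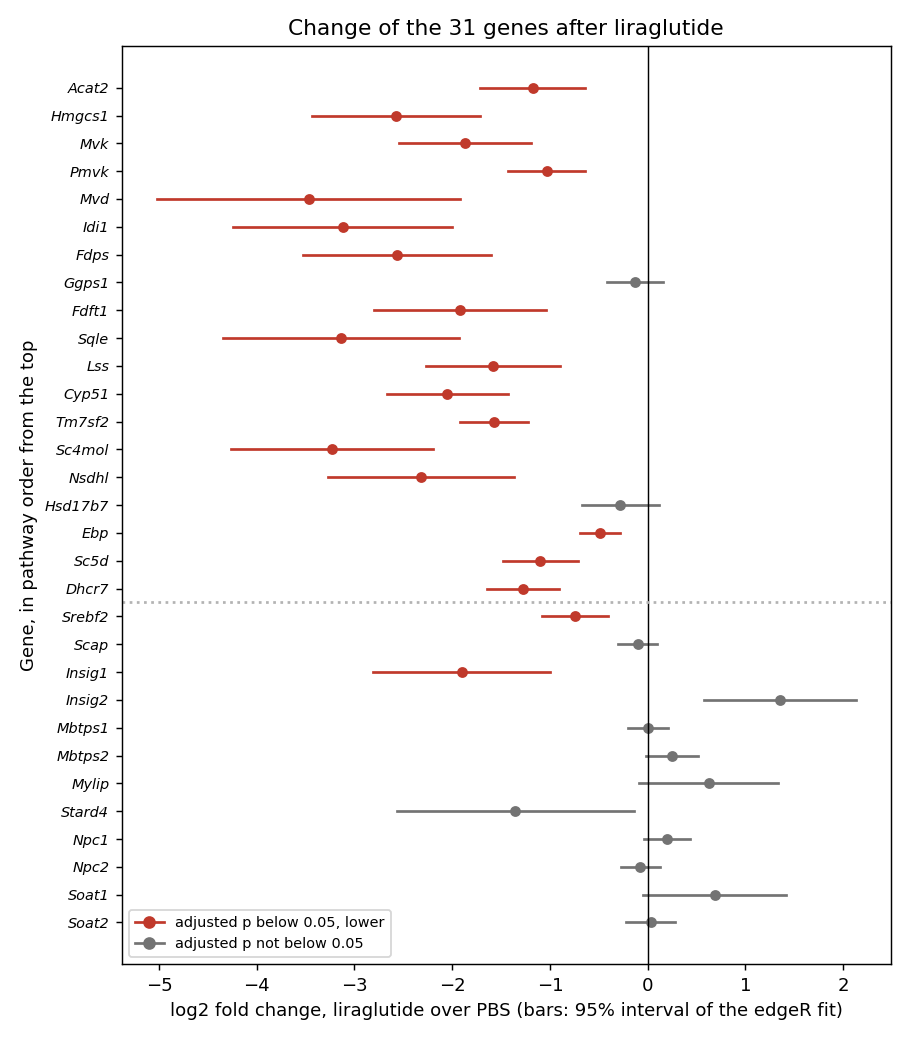
Log2 fold change of each gene, liraglutide over PBS, with the 95% interval of the edgeR fit as a bar; genes run in pathway order from the top and the dotted line divides the 19 enzymes from the 12 control and traffic genes. Red marks genes called lower and grey the rest: the largest change is that of Mvd at -3.47, and Insig2 at 1.35 is the farthest to the right.

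In the first stretch of the pathway, from acetyl-CoA to farnesyl and geranylgeranyl diphosphate, 7 of 8 genes fell. Acat2, the cytosolic thiolase that joins acetyl-CoA units, averaged 21.1 ± 4.36 normalised CPM (read counts scaled to library size and composition; SD, n = 3 in each group) after liraglutide and 47.7 ± 13.3 CPM after PBS (edgeR adjusted p = 0.0244). Hmgcs1, the cytosolic synthase that makes the precursor of mevalonate, had 76.0, 76.0 and 101 CPM in Lira161, Lira162 and Lira164, against 455, 293 and 755 CPM in PBS155, PBS157 and PBS158. The groups were well apart, with even the lowest PBS library above every liraglutide library. The change was -2.57 ± 0.36 on the log2 scale (SE, adjusted p = 0.0117 in edgeR), or 5.95-fold lower. By level per kilobase of exon, Hmgcs1 stood at rank 8 of the 31 genes in liraglutide livers and at rank 1 in PBS livers.

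The kinases Mvk and Pmvk, which phosphorylate mevalonate, fell by 1.87 ± 0.29 and 1.03 ± 0.17 on the log2 scale (edgeR adjusted p = 0.0119 and 0.0103). Mvd, the decarboxylase that yields isopentenyl diphosphate, had 1.16, 1.78 and 3.21 CPM in Lira161, Lira162 and Lira164, from 24, 46 and 77 reads, against 21.3, 10.2 and 37.4 CPM in PBS155, PBS157 and PBS158. It was 11.1-fold lower (log2 fold change -3.47 ± 0.62, edgeR adjusted p = 0.0303), the largest change among the 31 genes and also the one with the widest interval, -5.02 to -1.92. Leaving out Lira161, Lira162, Lira164 or PBS155, or using no low-count filter, ended the call of Mvd, at edgeR adjusted p up to 0.144, with log2 fold changes between -3.95 and -3.21.

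Idi1, the isomerase that supplies dimethylallyl diphosphate, had 3.09, 4.05 and 7.12 CPM after liraglutide against 41.0, 24.4 and 59.3 CPM after PBS, 8.69-fold lower (edgeR adjusted p = 0.0161). Fdps, which builds farnesyl diphosphate, had 16.8, 24.0 and 28.4 CPM after liraglutide against 117, 85.5 and 207 CPM after PBS, 5.91-fold lower (edgeR adjusted p = 0.0181). Of the exon bases of Fdps 26.7% are shared with Gm43738, a gene on the same strand with no row in the table. For both genes Lira161 was the lowest library and PBS158 the highest.

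Ggps1, which extends farnesyl to geranylgeranyl diphosphate on a branch away from sterols, did not follow. It had 8.00, 7.49 and 7.96 CPM after liraglutide and 8.94, 8.26 and 8.45 CPM after PBS. The groups did not overlap, yet the difference was small (-0.13 ± 0.13, edgeR adjusted p = 0.556). Its 95% interval was -0.41 to 0.15, against -3.52 to -1.60 for Fdps, whose product it uses; the difference between the genes was not tested. In the genome annotation 5.44% of the exon bases of Ggps1 are shared with Arid4b on the opposite strand. Scap, Hmgcs1 and Idi1 share 13.2%, 12.1% and 9.22% with opposite-strand genes that have no row in the table. For Npc1, Cyp51 and Lss the largest overlaps are 4.52%, 3.76% and 3.53%.

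**Figure D2:**
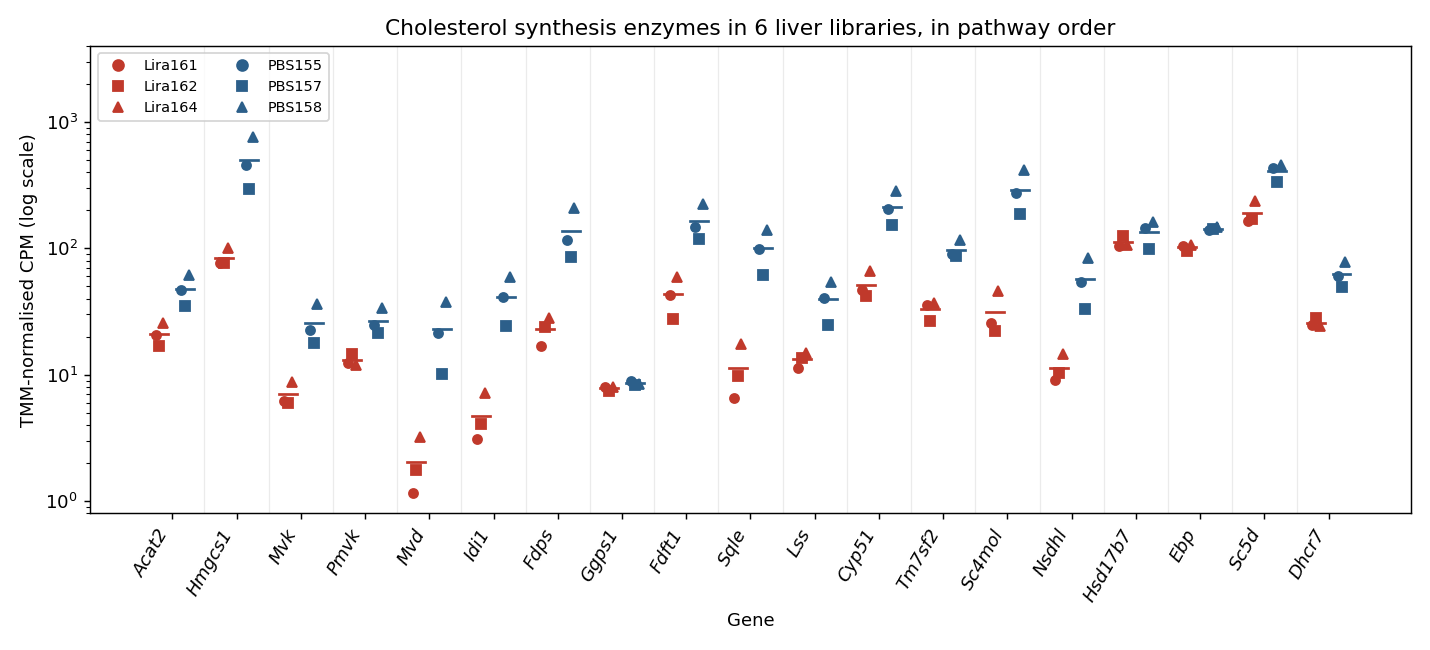
Level of the 19 synthesis enzymes in each library, in TMM-normalised CPM on a log axis, with liraglutide libraries (red) left of PBS libraries (blue), 1 point per library and a line at each group mean. Mvd, Idi1, Sqle and Sc4mol show the widest gaps, Ggps1 and Ebp narrow ones, and the PBS158 triangle is the top PBS point for 18 of the 19 genes.

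All 3 genes that commit farnesyl diphosphate to sterols and close the ring fell. Fdft1, squalene synthase, averaged 43.2 ± 15.9 CPM after liraglutide and 163.6 ± 54.7 CPM after PBS (-1.92 ± 0.36, edgeR adjusted p = 0.0297). Of its exon bases 18.3% overlap Ctsb on the opposite strand. Whether the counting used strand is not stated, so some of these reads may belong to Ctsb, which averaged 381 ± 42.9 CPM after liraglutide and 425 ± 37.2 CPM after PBS.

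Sqle, squalene epoxidase, is known as a slow, regulated step of the pathway. It had 6.61, 9.69 and 17.7 CPM in Lira161, Lira162 and Lira164, against 99.1, 61.7 and 139 CPM in PBS155, PBS157 and PBS158. That is 8.81-fold lower (-3.14 ± 0.48, edgeR adjusted p = 0.0208), and the highest liraglutide library was well under the lowest PBS library. Lss, the cyclase that makes lanosterol, had 11.3, 13.6 and 15.0 CPM after liraglutide and 40.7, 24.7 and 54.4 CPM after PBS, 3.00-fold lower (edgeR adjusted p = 0.0224).

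From lanosterol to cholesterol 7 of 8 genes fell. Sc4mol (now Msmo1), the methyl oxidase that starts removal of the C4 methyl groups, had 25.8, 22.01 and 45.7 CPM after liraglutide and 273, 189 and 414 CPM after PBS, 9.37-fold lower (-3.23 ± 0.42, edgeR adjusted p = 0.0119). Nsdhl, the dehydrogenase of the same demethylation, averaged 11.4 ± 2.93 CPM after liraglutide and 56.9 ± 25.4 CPM after PBS (4.99-fold lower, edgeR adjusted p = 0.0224). Hsd17b7, the ketoreductase that completes it, had 104, 125 and 106 CPM after liraglutide and 145, 99.4 and 161.4 CPM after PBS. These groups overlapped, because PBS157 was below every liraglutide library (-0.28 ± 0.17, 95% interval -0.67 to 0.12, edgeR adjusted p = 0.355). The interval of Sc4mol was -4.26 to -2.19, and the difference between these genes of 1 demethylation complex was not tested.

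Cyp51, the lanosterol demethylase, had 47.1, 42.2 and 65.7 CPM after liraglutide and 206, 153 and 282 CPM after PBS, 4.14-fold lower (edgeR adjusted p = 0.00758). Tm7sf2, a sterol reductase, averaged 33.0 ± 5.59 CPM after liraglutide and 98.0 ± 15.5 CPM after PBS, 2.97-fold lower (edgeR adjusted p = 0.00273), and 12.1% of its exon bases are shared with Vps51. Dhcr7, which reduces 7-dehydrocholesterol to cholesterol, had 24.8, 28.2 and 24.2 CPM after liraglutide and 60.02, 49.2 and 78.0 CPM after PBS, 2.42-fold lower (edgeR adjusted p = 0.00507). Sc5d, the desaturase before it, averaged 190.7 ± 39.4 CPM after liraglutide and 408 ± 65.2 CPM after PBS, 2.14-fold lower (edgeR adjusted p = 0.00794). Ebp, the isomerase of the sterol ring, had the smallest called change: 102 ± 5.69 CPM after liraglutide and 144 ± 4.22 CPM after PBS, 1.40-fold lower (edgeR adjusted p = 0.0139). Its replicates were tight enough for the groups to stand apart.

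Added up, the 19 enzymes took 721, 723 and 922 CPM in Lira161, Lira162 and Lira164, against 2426, 1786 and 3359.7 CPM in PBS155, PBS157 and PBS158, a mean sum 3.20-fold lower after liraglutide. The 12 control and traffic genes summed to 1149.5 ± 138 CPM after liraglutide and 1142 ± 147 CPM after PBS. That sum holds changes in opposite directions. Insig2 averaged 431 CPM after liraglutide and 169 CPM after PBS, and Insig1 averaged 74.6 CPM after liraglutide and 279 CPM after PBS. Ranked by mean CPM per kilobase of exon, Ebp led the enzymes in liraglutide livers at 44.3, followed by Sc5d at 39.2 and Hsd17b7 at 21.9, with Hmgcs1 at 18.3. In PBS livers the 3 highest enzymes were Hmgcs1, Sc5d and Ebp at 109, 83.8 and 62.2 CPM per kilobase. Mvd, Lss and Idi1 were the lowest enzymes in liraglutide livers, at 1.10, 1.23 and 1.36 CPM per kilobase. The length used joins all annotated exons of a gene, 10.8 kilobases for Lss, so these ranks depend on it. By mean CPM after liraglutide, Lss at 13.3 stood above Mvk at 6.98 and Ggps1 at 7.82.

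SREBP-2 acts on these genes at promoters together with the CCAAT-binding factor NF-Y and with Sp1, and the RefSeq promoter table (GRCm38.p6, 250 bases before to 50 after the start) held an entry for 25 of the 31 genes. Fdps, Fdft1, Sqle, Stard4, Npc1 and Soat2 had none. An SRE-like motif, TCACNCCAC on either strand, was found in 1 of the 25, Hmgcs1, and in 1.52% of the 9444 tested genes with an entry. The shorter CACNCCAC, which lies inside it, was found in 3 of the 25 (12.0%), against 7.78% of those 9444. The NF-Y motif CCAAT was found in 15 of the 16 genes called lower (93.8%) and in 6 of the 9 not called (66.7%), against 42.8% of the 9444. The Sp1 motif GGGCGG was in 15 of the 16, in 7 of the 9 and in 67.5%, and the E-box CACGTG in 3 of the 16, in 2 of the 9 and in 11.9%. A gene with several promoter entries was counted when any held the motif, and a match describes letters and not a bound site. The promoters of Hmgcs1, which holds the only SRE-like match, and of Mvd, Sc4mol and Idi1, the 3 largest falls with an entry and so chosen after the values were seen, are shown 5′ to 3′ with CCAAT on either strand (ATTGG where it lies on the other strand) and the SRE-like match in capitals.
Hmgcs1: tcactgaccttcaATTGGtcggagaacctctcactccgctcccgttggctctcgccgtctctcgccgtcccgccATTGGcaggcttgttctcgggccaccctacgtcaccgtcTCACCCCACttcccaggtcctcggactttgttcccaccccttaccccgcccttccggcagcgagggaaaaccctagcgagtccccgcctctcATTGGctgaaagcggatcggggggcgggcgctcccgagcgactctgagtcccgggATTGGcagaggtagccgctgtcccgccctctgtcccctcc
Mvd: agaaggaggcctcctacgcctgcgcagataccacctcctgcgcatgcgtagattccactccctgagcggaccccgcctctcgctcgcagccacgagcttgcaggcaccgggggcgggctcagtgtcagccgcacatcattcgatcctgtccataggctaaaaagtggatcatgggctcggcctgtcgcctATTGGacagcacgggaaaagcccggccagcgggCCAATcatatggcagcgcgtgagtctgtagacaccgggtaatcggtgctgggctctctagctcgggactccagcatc
Sc4mol: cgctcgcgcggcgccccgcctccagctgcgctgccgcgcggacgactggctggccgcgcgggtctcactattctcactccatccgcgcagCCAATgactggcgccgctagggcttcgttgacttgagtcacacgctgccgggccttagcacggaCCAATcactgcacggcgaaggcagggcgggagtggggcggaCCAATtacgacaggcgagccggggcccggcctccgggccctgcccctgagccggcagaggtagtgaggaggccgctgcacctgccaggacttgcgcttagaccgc
Idi1: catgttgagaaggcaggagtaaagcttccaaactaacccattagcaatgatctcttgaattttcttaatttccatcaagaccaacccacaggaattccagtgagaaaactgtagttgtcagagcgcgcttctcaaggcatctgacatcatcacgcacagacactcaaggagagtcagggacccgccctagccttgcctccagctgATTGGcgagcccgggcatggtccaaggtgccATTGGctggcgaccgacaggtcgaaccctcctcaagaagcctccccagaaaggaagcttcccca

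These lie at chr13:119690101-119690400 (plus strand), chr8:122443373-122443672 (minus strand), chr8:64733529-64733828 (minus strand) and chr13:8885356-8885655 (plus strand), each at the 5′ end of its gene. In Hmgcs1 the SRE-like match TCACCCCAC starts 137 bases before the start site, with CCAAT letters starting 237, 176 and 45 bases before it and 1 more inside the transcript. Mvd has CCAAT letters 60 and 27 bases before its start, Idi1 at 45 and 14 bases, and Sc4mol at 160, 96 and 55 bases.

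Of the 6 genes of SREBP-2 control, Srebf2 and Insig1 fell, and the proteases and the escort protein did not pass the test. Srebf2, the gene of SREBP-2 itself, had 33.5, 38.9 and 42.1 CPM in Lira161, Lira162 and Lira164, against 64.1, 51.5 and 76.6 CPM in PBS155, PBS157 and PBS158. The groups did not overlap, and the change of 1.68-fold (-0.75 ± 0.15, edgeR adjusted p = 0.0191) was smaller than that of most enzymes. Leaving out Lira161, Lira162 or PBS158 ended the call, at edgeR adjusted p up to 0.0777, with log2 fold changes between -0.77 and -0.60. Scap, the escort, had 140.3, 138 and 149 CPM after liraglutide and 156, 154 and 148 CPM after PBS, overlapping groups with an interval of -0.30 to 0.10. Mbtps1, the site-1 protease, averaged 64.4 ± 3.84 CPM after liraglutide and 64.3 ± 3.03 CPM after PBS. Mbtps2, the site-2 protease, averaged 13.7 ± 1.11 CPM after liraglutide and 11.5 ± 0.66 CPM after PBS (0.25 ± 0.12, edgeR adjusted p = 0.218), and 28.4% of its exon bases are shared with Yy2, on the same strand, which averaged 0.99 ± 0.36 CPM after liraglutide and 0.97 ± 0.34 CPM after PBS.

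Of the INSIG genes, Insig1 fell, while Insig2 was higher in every liraglutide library but missed the threshold. Insig1, a target of SREBP-2 whose product retains SCAP, had 61.5, 64.4 and 98.0 CPM in Lira161, Lira162 and Lira164, against 316, 153 and 368 CPM in PBS155, PBS157 and PBS158. It was 3.74-fold lower (-1.90 ± 0.37, edgeR adjusted p = 0.0328), with no overlap. Dropping Lira161 or Lira162, or PBS155 or PBS158, ended the call (edgeR adjusted p up to 0.151), with log2 fold changes between -1.82 and -1.65, and so did using no low-count filter (-1.91, adjusted p = 0.0875). Insig2, whose product does the same work and whose liver transcript is known to be lowered by insulin, had 549.7, 519 and 225 CPM after liraglutide, against 174, 166 and 166 CPM after PBS. Every liraglutide library was above every PBS library, Lira164 by much less than the other two. The fitted difference was 1.35 ± 0.32 (2.55-fold, interval 0.58 to 2.13) and lay just above the threshold (edgeR adjusted p = 0.0521). Without Lira164 it was 1.65 (adjusted p = 0.000127), with DESeq2 the adjusted p was 4.62e-06 and with limma-voom 0.0333, while it lay between 0.125 and 0.167 without any other library.

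Taken within each library, the log2 ratio of Insig1 to Insig2 counts was -3.16, -3.01 and -1.20 in Lira161, Lira162 and Lira164, against 0.86, -0.12 and 1.15 in PBS155, PBS157 and PBS158. The mean was -2.46 ± 1.09 after liraglutide and 0.63 ± 0.66 after PBS (SD, n = 3 each), a difference of -3.09 (two-sided exact permutation test, p = 0.1, the smallest that 3 against 3 libraries can give). Each INSIG gene already separated the groups, in opposite directions, so the ratio had to give this p. The p therefore adds no support beyond the values of the genes themselves. This ratio is free of the scaling between libraries. Per kilobase of exon, Insig2 had the highest level of the 31 genes in liraglutide livers, at 124 CPM per kilobase with Insig1 at 24.1, whereas in PBS livers Insig2 was at 48.6 and Insig1 at 90.2.

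The promoters of the INSIG pair are shown, a choice made after their values were seen, because the genes differed in direction, at chr5:28071162-28071461 (plus strand) and, for the first of 3 entries of Insig2, chr1:121332540-121332839 (minus strand). Capitals mark CCAAT letters on either strand and, in Insig1, the match to CACNCCAC on the other strand.
Insig1: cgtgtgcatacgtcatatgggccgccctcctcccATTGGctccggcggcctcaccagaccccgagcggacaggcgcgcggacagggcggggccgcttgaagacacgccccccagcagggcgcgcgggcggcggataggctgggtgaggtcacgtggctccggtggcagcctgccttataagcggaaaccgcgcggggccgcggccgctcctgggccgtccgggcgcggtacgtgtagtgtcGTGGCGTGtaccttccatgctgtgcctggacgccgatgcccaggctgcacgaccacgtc
Insig2: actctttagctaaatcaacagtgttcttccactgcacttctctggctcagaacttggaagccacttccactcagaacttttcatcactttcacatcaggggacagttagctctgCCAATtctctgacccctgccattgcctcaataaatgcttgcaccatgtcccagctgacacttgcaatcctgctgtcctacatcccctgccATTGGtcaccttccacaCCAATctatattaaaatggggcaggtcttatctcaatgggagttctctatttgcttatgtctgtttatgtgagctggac

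Insig1 has its CCAAT letters 216 bases before the start, an E-box 101 bases before it and the CACNCCAC match 9 bases before it, and Sp1 letters at 229, 167 and 126 bases. The Insig2 window has CCAAT letters 136, 46 and 29 bases before the start and no match to the other motifs searched.

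**Figure D3:**
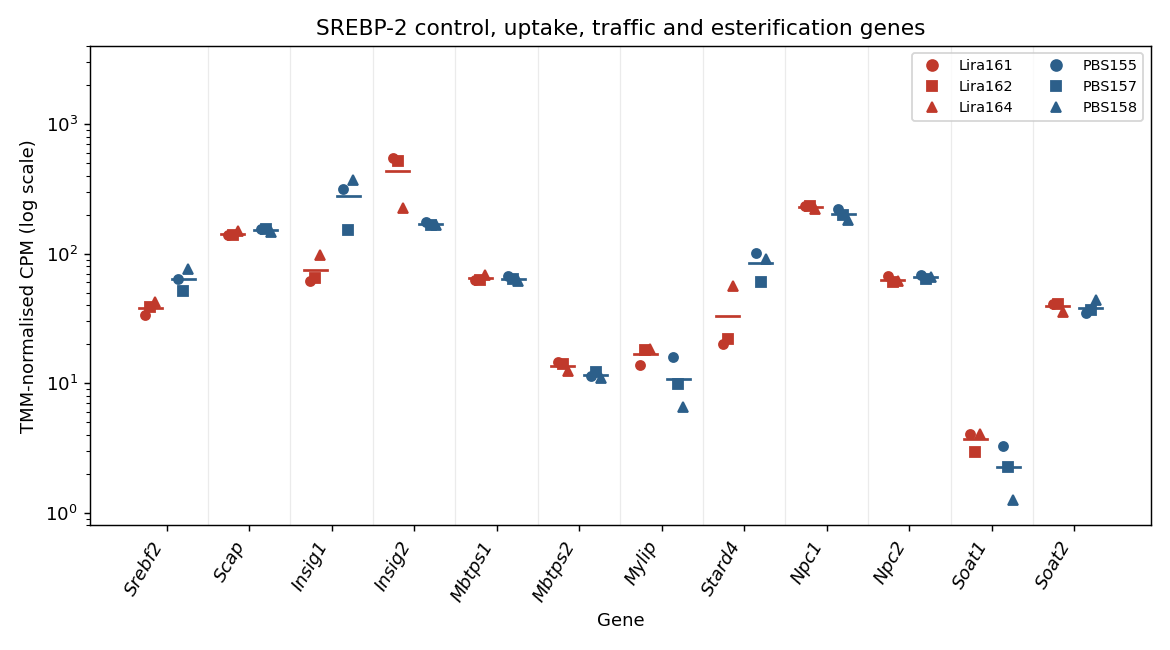
Level of the 12 genes of SREBP-2 control, uptake, traffic and esterification in each library, in TMM-normalised CPM on a log axis, liraglutide libraries (red) left of PBS libraries (blue), with lines at group means. Srebf2 and Insig1 are lower and Insig2 higher after liraglutide, Lira164 (red triangle) lies nearest to PBS for Insig1, Insig2 and Stard4, and Scap, Mbtps1, Npc2 and Soat2 overlap between groups.

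None of the 6 genes of uptake, traffic and esterification passed the test. At an unadjusted p below 0.05 in edgeR (1648 of all 12626 genes lower, 1582 higher), 1 was lower and 0 were higher. That one was Stard4, a carrier of sterol between membranes and a known SREBP-2 target, with 20.01, 21.9 and 56.7 CPM after liraglutide against 101, 60.1 and 91.3 CPM after PBS. The groups did not overlap, but Lira164 came close to PBS157 (-1.35 ± 0.48, edgeR adjusted p = 0.159). Without Lira164 the value was -2.01 (adjusted p = 0.00267), and limma-voom gave an adjusted p of 0.0415.

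Mylip, the ubiquitin ligase that degrades lipoprotein receptors and is induced by sterols through LXR, had 13.9, 17.9 and 18.3 CPM after liraglutide and 15.9, 9.93 and 6.53 CPM after PBS. The groups overlapped through PBS155 (0.63 ± 0.30, edgeR adjusted p = 0.249), and without that library the value was 1.01 (adjusted p = 0.0272). Soat1, which esterifies cholesterol in many cell types, had 4.05, 2.93 and 4.08 CPM after liraglutide and 3.26, 2.27 and 1.25 CPM after PBS. Soat2, the esterifying enzyme of hepatocytes, had 41.0, 41.2 and 35.4 CPM after liraglutide and 35.0, 36.7 and 43.5 CPM after PBS. Both pairs of groups overlapped. The late endosomal cholesterol exporters Npc1 and Npc2 averaged 229.8 ± 8.54 and 62.7 ± 3.54 CPM after liraglutide and 201 ± 18.4 and 66.1 ± 2.44 CPM after PBS (edgeR adjusted p = 0.274 and 0.633).

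The enzymes also varied together within a group. PBS157 was the lowest PBS library for 18 of the 19 enzymes and PBS158 the highest for 18. These libraries were lowest and highest in 27.97% and 33.6% of all tested genes, and in 46.3% and 52.0% of the genes called lower. PBS158 held a median of 1.90 times the CPM of PBS157 over the enzymes, and 1.00 times over the 11605 genes with a mean of at least 1 CPM. Among the liraglutide libraries, Lira164 was the highest for 15 of the 19, with a median of 1.39 times the CPM of Lira161. Over all tested genes Lira164 was the highest liraglutide library for 35.1%, and over the genes called lower for 60.8%. Mvd had the largest ratios of Lira164 to Lira161 and of PBS158 to PBS157 among the enzymes, at 2.77 and 3.65, and its ratio of Lira164 to Lira162 was 1.81. These library pairs were chosen after the values were seen, and genes of a library are not independent of each other.

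**Figure D4:**
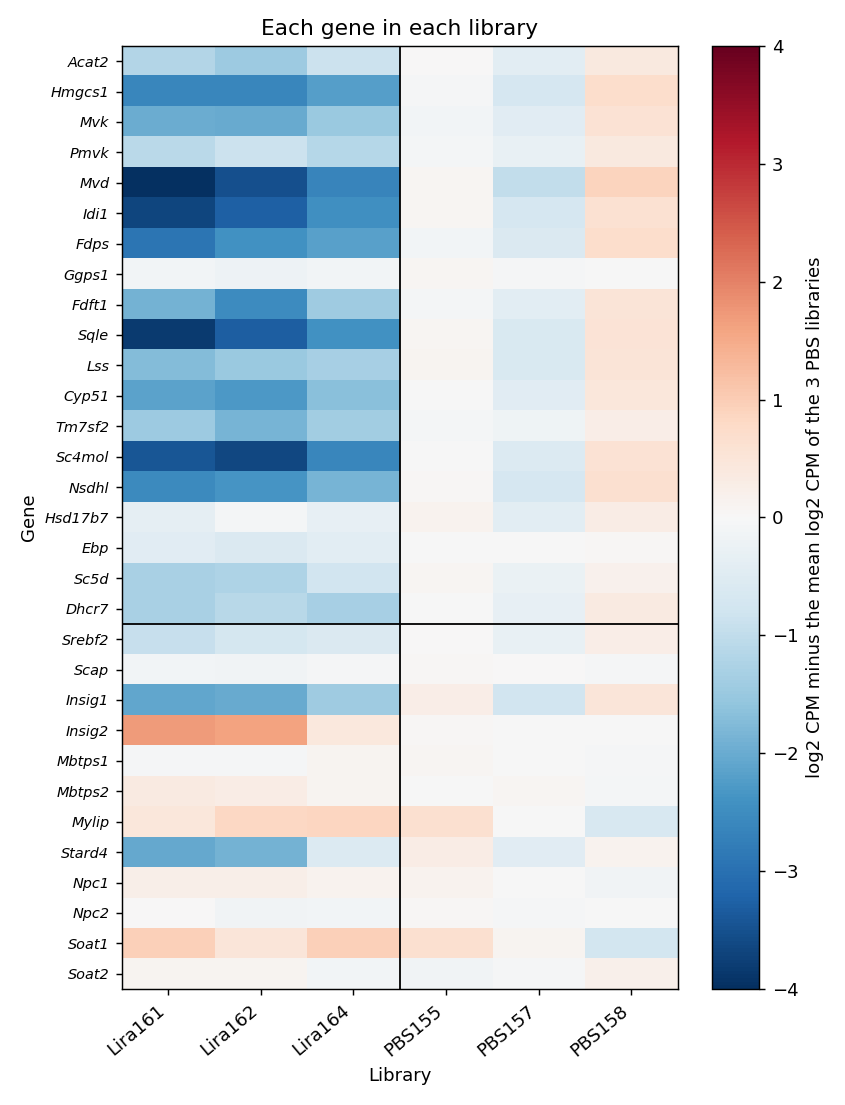
Colour shows log2 CPM of each gene in each library minus the mean log2 CPM of the 3 PBS libraries, with liraglutide libraries left of PBS libraries and the black line under the 19 enzymes. The blue block of enzymes in the liraglutide columns is palest in Lira164, PBS157 is pale blue and PBS158 pale red for most enzymes, and Insig2 is red in Lira161 and Lira162 and paler in Lira164.

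Other genes of the pathway were taken from lists around the 31. Of 18 tested genes otherwise linked to SREBP proteins, 6 fell and 0 rose (median log2 fold change -0.23), beside 4.69% called lower and 4.08% called higher of all tested genes. At an unadjusted p below 0.05 in edgeR, 9 of the 18 were lower and 0 higher. DESeq2 and limma-voom called 0 of them higher. Lpin1, named after its values were seen, had the largest change of the list, and it was upward (1.52 ± 0.69, edgeR adjusted p = 0.256). It had 470, 449 and 224 CPM after liraglutide against 39.1, 137 and 223 CPM after PBS. Mmab, the cobalamin enzyme gene that lies head to head with Mvk, averaged 12.5 ± 1.63 CPM after liraglutide and 33.5 ± 9.92 CPM after PBS (-1.42 ± 0.21, edgeR adjusted p = 0.00936; 0.0501 without Lira162). Acss2, a cytosolic source of acetyl-CoA, averaged 55.6 ± 3.22 CPM after liraglutide and 109.97 ± 21.1 CPM after PBS (-0.98 ± 0.14). Aldoc, an aldolase, and Tmem97, a sterol-regulated ER protein, fell by 1.01 ± 0.18 and 0.71 ± 0.13 on the log2 scale (edgeR adjusted p = 0.0116 and 0.0123). Rdh11 and Srebf1, named after their values were seen, were the other two, falling by 1.02 ± 0.23 and 1.42 ± 0.28 on the log2 scale.

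On the storage side, Nceh1, a hydrolase of cholesterol esters, had 139, 149 and 127 CPM after liraglutide and 68.0, 78.5 and 57.8 CPM after PBS, and rose by 1.02 ± 0.13 (edgeR adjusted p = 0.00399), a call that held under all 14 alternatives. It belongs to 14 genes of sterol transport, of which Nceh1 and the lysosomal acid lipase gene Lipa rose and Gramd1c, an ER sterol transfer protein gene, fell (median 0.08). Among all tested genes 4.08% were called higher and 4.69% lower. Lipa averaged 351 ± 55.5 CPM after liraglutide and 251 ± 5.91 CPM after PBS and lay at the threshold (edgeR adjusted p = 0.0499), losing its call with limma-voom (0.0545), with the 10 most abundant genes removed (0.0529) and without any library but Lira164 (up to 0.173). Gramd1c (-0.51 ± 0.11, edgeR adjusted p = 0.0245) lost its call without Lira162, PBS157 or PBS158 (up to 0.098).

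Of 17 tested genes of ER sterol sensing and degradation, 2 rose and 0 fell (median 0.03). At an unadjusted p below 0.05 in edgeR, 2 were lower and 3 higher, and DESeq2 called 1 lower. Nploc4, a cofactor of the VCP segregase, rose by 0.50 ± 0.11 and Paqr3, which tethers SCAP and SREBP at the Golgi, by 1.10 ± 0.27 (edgeR adjusted p = 0.0287 and 0.0402). Dropping Lira161, or Lira162, or PBS158 ended both calls, and so did dropping PBS155 for Nploc4 and PBS157 for Paqr3. Of 11 genes of sterol efflux and LXR, Nr1h2, the gene of LXR-beta, rose (0.34 ± 0.09, edgeR adjusted p = 0.0467, and up to 0.185 with a library left out) and 0 fell. At an unadjusted p below 0.05 in edgeR, 2 were lower and 2 higher, and DESeq2 called 1 lower. Nr1h2 kept its call without Lira164 and lost it without any other library. Of 24 genes of the other isoprenoid branches, for ubiquinone, dolichol, heme A and protein prenylation, 0 passed the test in edgeR, DESeq2 or limma-voom, and 1 was higher with library totals as the scaling. At an unadjusted p below 0.05, 0 were lower and 5 higher in edgeR. Of all 12626 tested genes, 1648 were lower and 1582 higher at that threshold, the background for each unadjusted count of these lists. By the adjusted p in edgeR, 4.69% of all tested genes were called lower and 4.08% higher, the background for each count of calls. The smallest p-values were those of Coq6 (0.38 ± 0.12, adjusted p = 0.0757) and Fntb (0.57 ± 0.20, adjusted p = 0.114).

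**Figure D5:**
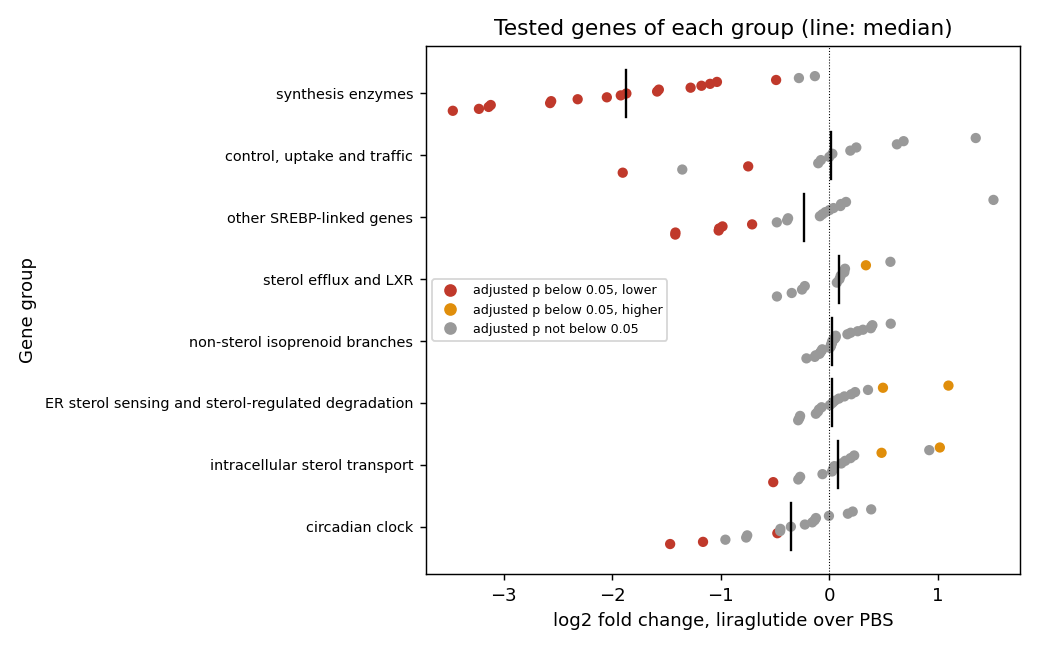
Each point is the log2 fold change of 1 tested gene, liraglutide over PBS, by gene group, with a black line at the group median. The enzymes lie to the left with a median of -1.87, the SREBP-linked genes reach into the same range, and the isoprenoid, efflux, ER and transport groups centre near 0.

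Measures of the whole libraries stand beside these results. Total counts ran from 20888991 to 25404192 after liraglutide and from 21901811 to 27007182 after PBS, overlapping ranges. All 8 hepatocyte markers found in the table were detected, and 1 of 8 was called (Hnf4a, higher). They summed to 77941 to 97269 CPM after liraglutide and 88087 to 109144 CPM after PBS. Alb alone held 41037 to 57171 CPM after liraglutide and 55676 to 76534 CPM after PBS. The median log2 fold change of the 8 was 0.09. Over the tested markers of other cells it was 0.49 for macrophages, 0.74 for endothelial cells and 0.14 for stellate cells. It was -0.37 for cholangiocytes, 0.34 for lymphocytes and -1.29 for erythroid cells. The endothelial values were all positive, from 0.38 to 0.86. The markers of macrophages summed to 252 to 402 CPM after liraglutide and 113 to 463 CPM after PBS, and 0 of the 10 were called. Those of endothelial cells summed to 188 to 293 CPM after liraglutide and 116 to 207 CPM after PBS (1 of 8 called, Clec4g, higher). Markers of cholangiocytes summed to 26.6 to 28.6 CPM after liraglutide and 42.0 to 50.9 CPM after PBS (1 of 5 tested called, Spp1, lower). Spp1 alone held 19.2 to 21.6 CPM after liraglutide and 33.5 to 40.9 CPM after PBS. Erythroid markers summed to 42.9 to 100.3 CPM after liraglutide and 152 to 165 CPM after PBS (1 of 2 tested called, Alas2, lower). Hba-a1 was at 0 counts in every library. Markers of stellate cells summed to 303 to 358 CPM after liraglutide and 189.5 to 322 CPM after PBS (0 of 9 tested called). Those of lymphocytes summed to 3.79 to 5.13 CPM after liraglutide and 2.11 to 4.10 CPM after PBS (0 of 5 tested called). Fat cell markers summed to 0.193 to 0.50 CPM after liraglutide and 0.60 to 2.05 CPM after PBS. Only Cfd was tested among them, and it was not called (-2.47 ± 0.67, edgeR adjusted p = 0.0544). No neutrophil marker was tested. The part of these shifts in the pathway's change was not tested.

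Cholesterol synthesis follows the time of day and of feeding in rodent liver, and the labels give no hour of collection. Of 17 tested clock genes, 3 fell and 0 rose (median -0.35), beside 4.69% called lower and 4.08% called higher of all tested genes. At an unadjusted p below 0.05 in edgeR, 8 were lower and 0 higher, against 1648 lower and 1582 higher of all 12626 tested genes. DESeq2 called 7 lower and 0 higher. Per3 averaged 21.3 ± 7.31 CPM after liraglutide and 58.7 ± 6.42 CPM after PBS (edgeR adjusted p = 0.0139), Cry1 averaged 3.65 ± 0.84 CPM after liraglutide and 8.19 ± 1.02 CPM after PBS, and Cry2 averaged 35.9 ± 3.22 CPM after liraglutide and 49.98 ± 7.19 CPM after PBS. Cry1 kept its call under all 14 alternatives, Per3 lost it without Lira161 or PBS158, and Cry2 held it without Lira164 but with no other library left out, and also lost it with upper quartile factors, library totals or the filter at a mean of 5 CPM. The part of any shift in clock phase in the enzyme levels was not tested.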

How the data were processed

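RNA was measured in 6 liver libraries. Per the labels' protocols, frozen tissue gave column-purified total RNA for standard Illumina libraries. The authors deposited raw read counts per gene symbol, whole numbers without normalization; STAR and build mm10 were used per the submitters' processing notes. The counter, its annotation and its use of strand are unknown (not given in the sources used here); overlapping genes may share reads. Column names give a group and a library number found nowhere in the labels, so each column was tied to its group alone, and 0 columns were left out. Pairs of libraries within a group had a chi-square per degree of freedom between 31.0 and 61.3, and all 6 were kept as separate.

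Counts were filtered with filterByExpr, which kept 12626 of 23412 genes, TMM-scaled, and tested in R 4.3.3 by edgeR 4.0.16 (robust quasi-likelihood F test, group as the only term, Benjamini-Hochberg adjustment over all tested genes, threshold 0.05). The standard error is the log2 fold change divided by the square root of F. DESeq2 1.42.0 and limma-voom (limma 3.58.1) were alternatives, with other scalings and filters, the 10 most abundant genes removed, and each library left out. Library totals were 20888991 to 27007182 counts, and the standard errors cover counting error and spread between libraries together.

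Positions and exon lengths came from GENCODE M21 (GRCm38, the assembly of mm10), in which all 31 genes matched, and promoters from RefSeq on GRCm38.p6. Named genes were all 31 members, and of each surrounding list up to 4 called genes with the smallest p, or 2 where none was called. The members and lists were chosen with earlier results of these data known. Some genes of this pathway are not reported here. Figures used matplotlib 3.10.9.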

Additional observations from a re-analysis of the deposited data

How the results depend on the processing

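Without the low-count filter 12 of the 31 genes were called lower instead of 19. In place of 0 genes called higher there was 1 with library totals as the scaling, with a mean CPM filter, with DESeq2 and with limma-voom, in each case Insig2. Leaving out one library at a time gave 5 to 19 genes called lower and 0 to 1 higher, and 393 to 1496 called among all genes, against 1107. With library totals all genes split into 609 higher and 456 lower, against 515 and 592. Mbtps1 reversed to -0.00101 with DESeq2 size factors, -0.00142 with DESeq2 and -0.0116 with the 10 most abundant genes removed, and ran from -0.0567 to 0.0275 with a library left out; Soat2 ran from -0.0462 to 0.129. The shorter motif was found in 3 promoters instead of 1.

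Of the surrounding lists, sterol efflux had 1 gene lower without the low-count filter and with DESeq2, and 0 higher without the filter and with the 10 most abundant genes removed. The isoprenoid list had 1 gene higher with library totals, ER sensing 1 lower with DESeq2, and sterol transport 1 higher with limma-voom and with the 10 most abundant genes removed. Clock genes called lower were 7 with DESeq2 and 5 with limma-voom. With a library left out, the genes called lower were 3 to 7 of the SREBP-linked list, 0 to 1 of efflux, 0 to 1 of transport and 1 to 8 of the clock; those called higher were 0 to 1 of efflux, 0 to 2 of ER sensing and 1 to 2 of transport. Where a left-out library or a setting changed a value, the cause was not tested. The median log2 fold change of the 31 genes kept its direction in all 14 settings, and the difference in the Insig1 to Insig2 log2 ratio, which scaling cannot change, ran from -3.72 to -2.73 with a library left out. No paired analysis was possible because the columns carry no replicate number that the labels share. Mvd rested on 24 to 77 reads in each liraglutide library.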
